A study of Sus scrofa with 20 samples.

Results

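In the pig hypothalamus, 7 genes of cholesterol synthesis and its control were followed, namely LSS, SREBF2, HMGCS1, SQLE, FDFT1, DHCR7 and INSIG1. They were chosen with earlier results of these data known. They were taken by symbol from the Ensembl gene rows, and all 7 were found among 25880 gene rows. A filter on low counts kept 6 of the 7, among 7090 genes tested. DHCR7 held too few counts to test. The study set hypothalamic messenger RNA of Iberian x Large White pigs, called crossbred here, against that of pure Iberian pigs. All 20 animals were 2 months old and carried no treatment in the labels, with 5 animals in each of 4 groups (crossbred male, Iberian male, crossbred female and Iberian female). The labels do not name litters or dams. The tests treat the 20 animals as independent, and p-values could be too small if animals of a group share a litter or dam.

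Cholesterol is made from acetyl-CoA through the mevalonate pathway, and the brain makes its own because plasma lipoproteins hardly cross the blood-brain barrier. The transcription factor SREBP2, the product of SREBF2, switches on nearly all enzymes of the pathway when sterols are scarce. INSIG1 holds the SREBP escort protein SCAP in the endoplasmic reticulum when sterols are plentiful, which keeps SREBP2 inactive. In the brain, astrocytes supply neurons with cholesterol and oligodendrocytes put large amounts of it into myelin.

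Each library held 1430138 to 2384615 counts assigned to genes. One library, Iberian male replicate 5, stood apart from the rest. It held 157 counts of prolactin (PRL), 163 of CGA and 111 of FSHB, pituitary hormone genes with at most 4, 2 and 2 counts in any other library. In it 4 of the 12 hypothalamic neuropeptide genes that had an identifier were at 0, while each of the 12 was counted in at least 1 library of each of the 4 groups. A group of 5 libraries has more chances to count a gene than 1 library. The summed level of the 12 in Iberian male 5 was 80.6 CPM (counts scaled to library size), the highest of the 20. It was 21.6 to 70.4 CPM in the other libraries. The breed results of the 6 tested genes and of the lists are given with and without this animal. The share of alignments set aside for low quality was 5.33 to 5.92% in 7 libraries (all 5 Iberian females and Iberian males 2 and 3) and 2.73 to 3.88% in the other 13. In females this split coincided with breed, so low alignment quality and breed cannot be told apart there. The mitochondrial gene ND6 held 19.8 to 141 times as many counts as COX1, a ratio whose top value without Iberian male 5 was 53.7. Of all entries, 80.2 to 88.1% fell in no feature and 4.04 to 4.62% were counted to genes. Since ND6 lies on the opposite mitochondrial strand, it is uncertain from which strand the counts of any gene come. The strand was not tested, so the levels given here are of counts and may not be of the gene's own messenger RNA.

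**Figure D1:**
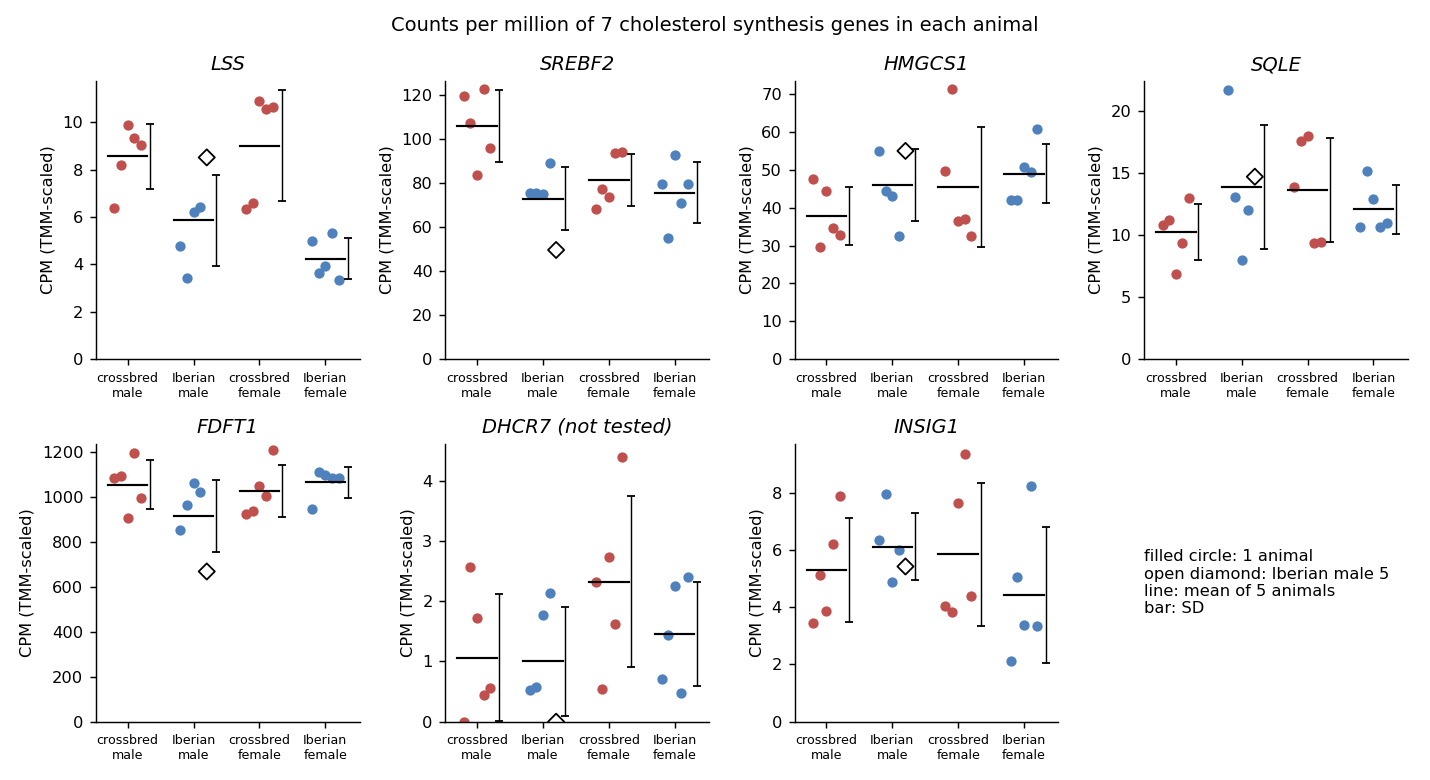
Levels in CPM (counts scaled to library size by TMM, y axis) of the 7 genes in each of the 20 animals (points), by group (x axis), with the group mean (line) and SD (bar); the open diamond is Iberian male 5. LSS in crossbred females (6.35 to 10.9 CPM) lies above Iberian females (3.35 to 5.32 CPM), and Iberian male 5 is the lowest of all animals for SREBF2 (49.6 CPM) and FDFT1 (668 CPM).

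Of the 6 tested genes, LSS had the largest fitted difference between the breeds. Crossbred animals averaged 8.79 ± 1.82 CPM (counts scaled to library size) of LSS and Iberian animals 5.05 ± 1.64 CPM (SD, n = 10 each). The fitted difference was 1.77-fold (log2 0.82, SE 0.19) and did not pass over all genes (edgeR adjusted p = 0.0614, rank 19 of 7090 by p). It passed once Iberian male 5 was left out (log2 0.89, SE 0.20, edgeR adjusted p = 0.0243). With the low-quality alignment split as a term as well, LSS did not pass (log2 0.74, SE 0.39, edgeR adjusted p = 0.832). In females that split coincided with breed, so the female part of the difference cannot be told apart from it. For SREBF2, the regulator, the breed difference was 0.31 on that scale (SE 0.11) and did not pass (edgeR adjusted p = 0.405), and the other 4 tested genes lay between -0.19 and 0.09.

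LSS encodes lanosterol synthase, which closes the squalene epoxide chain into lanosterol, the first sterol of the pathway. It is listed as ENSSSCG00000021418, and the RefSeq table used here gives it no chromosome. In crossbred males LSS had 6.39, 8.19, 9.90, 9.34 and 9.03 CPM in replicates 1 to 5, against 4.76, 3.41, 6.20, 6.43 and 8.52 CPM in Iberian males. In crossbred females it had 6.35, 6.59, 10.9, 10.6 and 10.7 CPM, against 4.98, 3.62, 3.94, 5.32 and 3.35 CPM in Iberian females. The female groups did not overlap, and breed there coincided with the low-quality alignment split. The male groups overlapped through Iberian males 5 and 4, of which the second lay just above the lowest crossbred male. These levels rest on few reads, 11 to 26 counts per library in crossbred animals and 5 to 15 in Iberian animals. LSS passed the filter on low counts, 10 counts in about 5 libraries, only through the crossbred animals, where it was higher. Iberian females held 7, 5, 7, 11 and 7 counts and Iberian males 9, 6, 14, 15 and 11. Without a filter its breed difference was 0.84 (SE 0.23, edgeR adjusted p = 0.0580). Summed over 10 libraries each, there were 175 counts (95% exact Poisson interval 150 to 203) in crossbred animals and 92 (74.2 to 113) in Iberian animals. These intervals cover counting error only and are not scaled to library size.

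Within each sex the LSS difference had the same direction but did not pass. In males the log2 value was 0.56 (SE 0.26, edgeR adjusted p = 0.435), and without Iberian male 5 it was 0.69 (SE 0.28, edgeR adjusted p = 0.302). In females it was 1.08 (SE 0.28, edgeR adjusted p = 0.325, rank 12 of 7090), and breed there coincided with the low-quality alignment split. The test of the difference between the sexes, breed in males minus breed in females, gave -0.52 (SE 0.39, edgeR adjusted p = 0.719), so the breed difference was not shown to differ between males and females. Sex itself gave a log2 difference of 0.18 (SE 0.19) for LSS, with means of 7.22 ± 2.12 CPM in males and 6.63 ± 3.01 CPM in females (SD, n = 10 each).

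Leaving out each of the 20 libraries in turn kept the LSS breed difference between 0.76 and 0.89, and the call was made in 1 of the 20 fits, the one without Iberian male 5. That animal had the highest LSS level of the Iberian males (8.52 CPM), and without it the Iberian male mean was 5.20 ± 1.40 CPM (SD, n = 4), against 8.57 ± 1.37 CPM in crossbred males (SD, n = 5). With the low-quality alignment split as a term, the breed difference of LSS was 0.56 (SE 0.34, edgeR adjusted p = 0.521). Only Iberian males, 2 of the high and 3 of the low share, set that term. In females it is carried over from them and not measured. Within Iberian males, LSS had 3.41 and 6.20 CPM in the 2 libraries of the high share and 4.76, 6.43 and 8.52 CPM in the 3 libraries of the low share. Among males of the low share alone, 5 crossbred and 3 Iberian with Iberian male 5 among them, the LSS difference was 0.43 (SE 0.31, edgeR adjusted p = 0.572). With the term and without Iberian male 5, LSS had 0.74 (SE 0.39, edgeR adjusted p = 0.832) over both sexes and 0.60 in males (SE 0.35, edgeR adjusted p = 0.569).

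**Figure D2:**
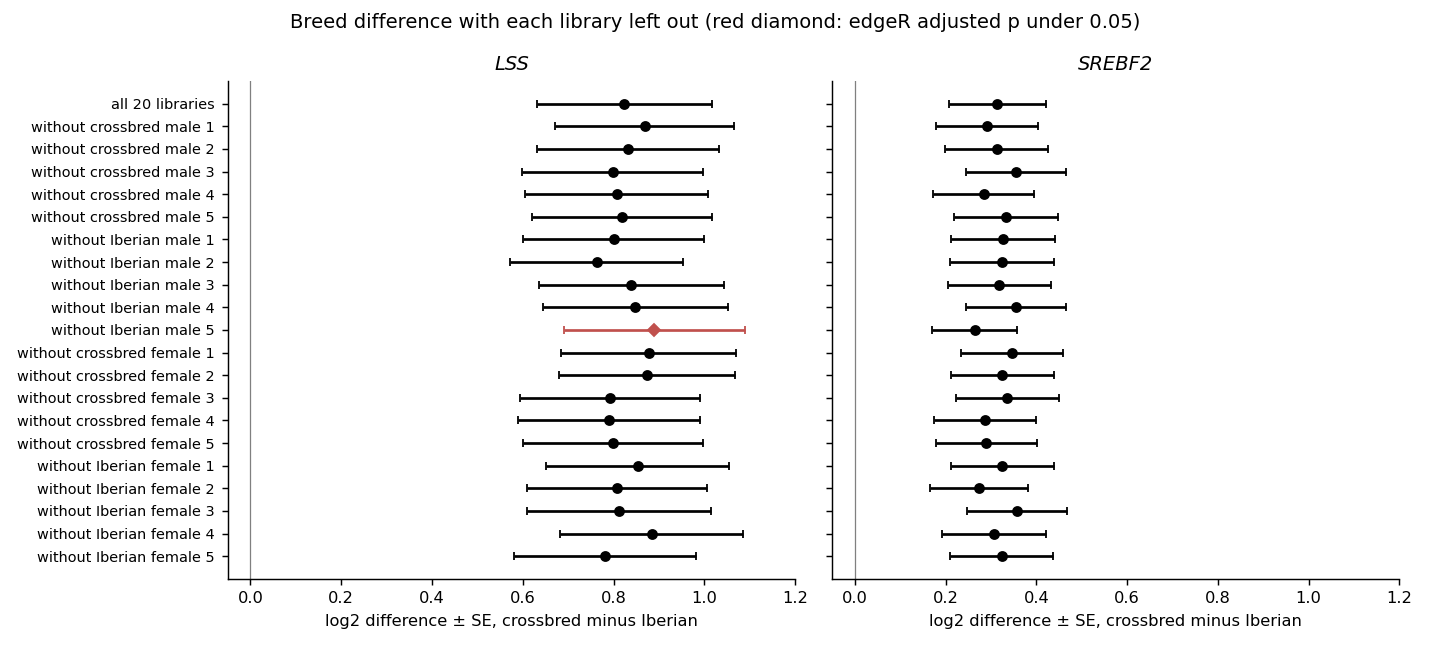
Breed difference of LSS and SREBF2 (log2, crossbred minus Iberian, x axis, bars are SE) with all 20 libraries and with each library left out (y axis). LSS lies between 0.76 and 0.89 and passes an adjusted p of 0.05 without Iberian male 5 and in no other of these fits, and SREBF2 stays between 0.26 and 0.36 and passes in none of these fits.

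SREBF2 encodes SREBP2, the membrane-bound precursor that is cut in the Golgi to release the active factor. The gene (ENSSSCG00000026092) spans chromosome 5 from 6719484 to 6784724 in Sscrofa11.1 per RefSeq. In crossbred males SREBF2 had 119, 107, 83.5, 123 and 95.9 CPM, against 75.7, 75.6, 74.8, 89.1 and 49.6 CPM in Iberian males. In crossbred females it had 68.2, 77.4, 73.7, 93.5 and 94.1 CPM, against 79.6, 55.0, 92.9, 71.1 and 79.5 CPM in Iberian females. All 5 crossbred males lay above the Iberian male median, and the groups overlapped only where Iberian male 4 exceeded crossbred male 3. The female groups overlapped over most of their range, with 2 crossbred females above the Iberian female median and 3 below it. At 64 to 276 counts per library, SREBF2 was better counted than LSS.

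The SREBF2 difference in males was 0.53 as a log2 value (SE 0.15, unadjusted p = 0.00151, edgeR adjusted p = 0.219), with means of 106 ± 16.3 CPM in crossbred males and 73.0 ± 14.4 CPM in Iberian males (SD, n = 5 each). In females it was 0.10 (SE 0.15, edgeR adjusted p = 0.996), with means of 81.4 ± 11.8 CPM in crossbred females and 75.6 ± 13.9 CPM in Iberian females (SD, n = 5 each). The difference between these was 0.42 (SE 0.21, edgeR adjusted p = 0.606) and did not pass. Without Iberian male 5, the lowest of the 20 animals for SREBF2, the Iberian male mean was 78.8 ± 6.87 CPM (SD, n = 4) and the difference in males 0.43 (SE 0.13, edgeR adjusted p = 0.203). Without it, both sexes together gave 0.26 (SE 0.09, edgeR adjusted p = 0.337). Among males of the low share of low-quality alignments, a set that still holds Iberian male 5, the SREBF2 difference was 0.56 (SE 0.19, edgeR adjusted p = 0.294). With the alignment split as a term and without that animal, SREBF2 had 0.36 in males (SE 0.17, edgeR adjusted p = 0.450) and 0.16 over both sexes (SE 0.18, edgeR adjusted p = 0.941). Sex gave 0.17 (SE 0.11), with means of 89.4 ± 22.6 CPM in males and 78.5 ± 12.6 CPM in females (SD, n = 10 each).

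Markers of oligodendrocytes and myelin, 9 of 12 with an identifier and none at 0, had a summed level of 1696 to 1948 CPM in crossbred males and 1446 to 1657 CPM in Iberian males, with no overlap. The Iberian male sums were 1468 to 1657 CPM once Iberian male 5 was left out. Taken singly, 7 of the 9 markers were above 0 between breeds in males and 2 below (median 0.15), and without that animal 4 were above and 5 below (median -0.02). In females the sums were 1536 to 2233 CPM in crossbred animals and 1516 to 1837 CPM in Iberian animals, and they overlapped. In males the summed astrocyte markers were 568 to 756 CPM in crossbred and 559 to 747 CPM in Iberian animals, and overlapped. Neuron sums (386 to 457 against 351 to 542 CPM) and microglia sums (303 to 358 against 242 to 354 CPM) overlapped too. How often sums of other gene sets do not overlap was not counted. The part of any of these markers in the SREBF2 values was not tested. In pieces of whole tissue such as these, fewer cells of a type and less RNA per cell cannot be told apart.

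INSIG1, the sterol-dependent brake on SREBP2 and itself a target of SREBP2, was counted at 3 to 23 reads per library. It lies on chromosome 18 from 2885494 to 2898758 (ENSSSCG00000016420). In crossbred males INSIG1 had 3.44, 5.12, 3.87, 6.23 and 7.90 CPM, against 6.35, 7.96, 4.87, 6.0 and 5.42 CPM in Iberian males. In crossbred females it had 4.04, 3.84, 7.64, 9.35 and 4.39 CPM, against 2.13, 5.06, 3.38, 8.22 and 3.35 CPM in Iberian females. All 4 groups overlapped. The breed difference of 0.09 (SE 0.24, edgeR adjusted p = 0.956) was below its standard error, with -0.21 (SE 0.33) in males and 0.40 (SE 0.35) in females. Leaving out Iberian male 5 gave 0.08 over both sexes, -0.24 in males and 0.40 in females. Summed counts were 112 (95% exact Poisson interval 92.2 to 135) in crossbred animals and 98 (79.6 to 119) in Iberian animals, intervals that overlap. They cover counting error only, without scaling to library size.

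Among the enzymes, HMGCS1 makes HMG-CoA, an early intermediate of the mevalonate pathway. HMGCS1 (ENSSSCG00000016872, chromosome 16 from 27936225 to 27957261) had 47.6, 29.7, 44.3, 34.7 and 32.7 CPM in crossbred males, against 55.1, 44.3, 43.0, 32.6 and 55.0 CPM in Iberian males. It had 49.7, 71.4, 36.6, 37.0 and 32.6 CPM in crossbred females, against 41.9, 41.9, 50.7, 49.3 and 60.8 CPM in Iberian females. Both pairs of groups overlapped, and crossbred female 2 had the highest level of the 20 animals. HMGCS1 thus ran opposite in sign to LSS and SREBF2 between breeds, at -0.19 (SE 0.14, edgeR adjusted p = 0.782), without passing. It was -0.27 (SE 0.19) in males and -0.12 (SE 0.19) in females. Leaving out crossbred female 2 gave -0.34 in females and -0.30 over both sexes, and leaving out Iberian female 5 gave -0.02 in females. Leaving out Iberian male 1 gave -0.18 in males. The HMGCS1 difference without Iberian male 5 was -0.16 over both sexes and -0.19 in males.

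FDFT1 encodes squalene synthase, which joins farnesyl units at the branch point towards sterols. With 862 to 2683 counts per library it was the best counted of the 7, and its estimate was the tightest. FDFT1 (ENSSSCG00000026044, chromosome 14 from 14976259 to 15010701) had 1084, 1092, 906, 1193 and 995 CPM in crossbred males, against 853, 965, 1062, 1023 and 668 CPM in Iberian males. It had 922, 936, 1048, 1003 and 1208 CPM in crossbred females, against 943, 1111, 1098, 1083 and 1084 CPM in Iberian females. Both pairs overlapped, and Iberian male 5 was the lowest of the 20 animals. The breed difference of FDFT1 was 0.07 (SE 0.07, edgeR adjusted p = 0.855), and without Iberian male 5 it was 0.03 (SE 0.06). In males it was 0.20 (SE 0.10, edgeR adjusted p = 0.481), and 0.11 (SE 0.08) without that animal, while in females it was -0.06 (SE 0.10). A pseudogene is annotated 1724 bases from FDFT1 on chromosome 14, and the sources used here do not say how reads shared with it were treated.

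SQLE, squalene epoxidase, follows FDFT1, sets the pace of the later pathway and hands its product to LSS. SQLE (ENSSSCG00000005970, chromosome 4 from 14669789 to 14700152) had 10.8, 11.3, 6.89, 9.34 and 13.0 CPM in crossbred males, against 21.7, 13.1, 7.97, 12 and 14.7 CPM in Iberian males. It had 13.9, 17.6, 18.0, 9.35 and 9.41 CPM in crossbred females, against 10.7, 15.2, 13.0, 10.6 and 11 CPM in Iberian females. Iberian male 1 was the highest of the 20 animals, and the groups overlapped in both sexes. The breed difference was -0.13 (SE 0.18, edgeR adjusted p = 0.902) over both sexes. In males it was -0.43 (SE 0.26, edgeR adjusted p = 0.533) and in females 0.18 (SE 0.26), with 15 to 41 counts behind each level. Leaving out Iberian male 1 alone gave -0.19 for SQLE in males and -0.007 over both sexes. For SQLE without Iberian male 5 the values were -0.41 in males and -0.12 over both sexes.

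DHCR7 reduces 7-dehydrocholesterol to cholesterol, the last step of one branch. Its row (ENSSSCG00000021181, chromosome 2 from 2377352 to 2391846) held 0, 5, 4, 1 and 1 counts in crossbred males and 1, 1, 4, 5 and 0 counts in Iberian males. It held 4, 1, 5, 4 and 7 counts in crossbred females and 1, 2, 4, 1 and 5 counts in Iberian females. No group stood apart. The 56 counts in all divided into 32 (95% exact Poisson interval 21.9 to 45.2) in crossbred animals and 24 (15.4 to 35.7) in Iberian animals, intervals that overlap. These intervals cover counting error only and are not scaled to library size. DHCR7 was below the filter on low counts, so the main fit gave no breed difference for it. Transcript lengths were not used here, so levels are compared between animals and never between genes.

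**Figure D3:**
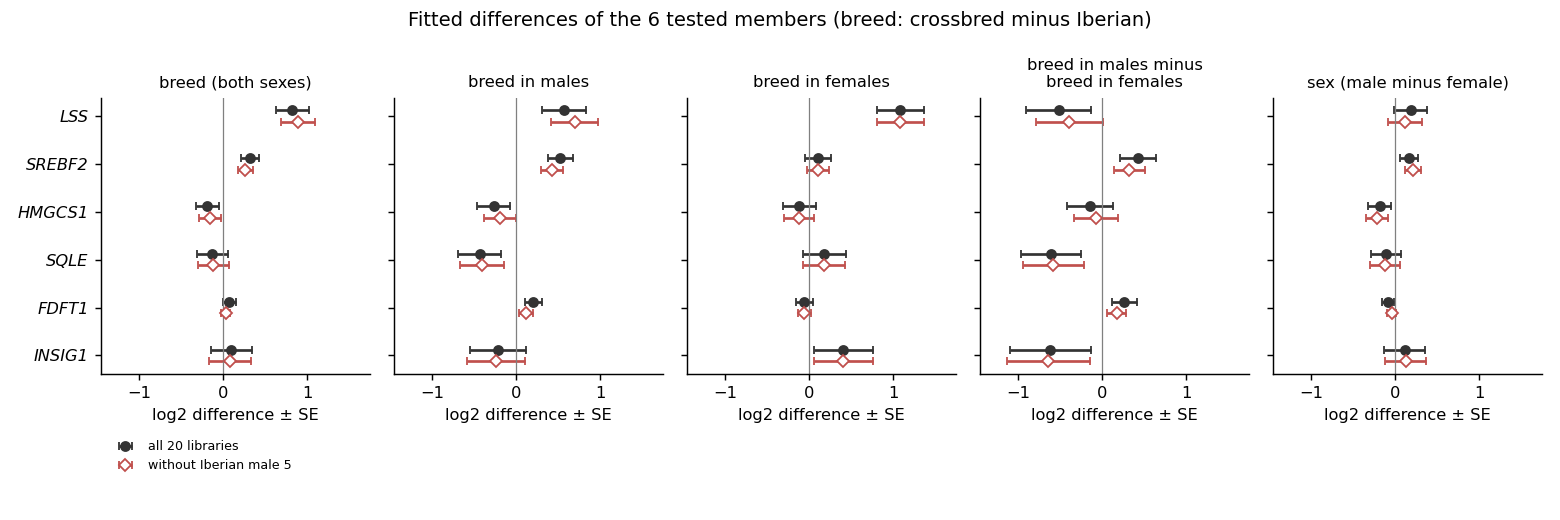
Fitted log2 differences with SE (x axis) of the 6 tested genes (y axis) for breed, breed in males, breed in females, breed in males minus breed in females, and sex, with all 20 libraries (filled circles) and without Iberian male 5 (open diamonds). LSS stands at 0.82 for breed with all libraries and 0.89 without that animal, and leaving it out moves SREBF2 in males to 0.43, against 0.53 with all libraries.

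Counted over the set, edgeR called none of the 6 tested genes between breeds, where it called 0.226% of all genes (16 of 7090). At an unadjusted p under 0.05 there were 2 (LSS and SREBF2), where 7.48% of all genes had one. DESeq2 also called none of them, and limma voom with quality weights called LSS alone. Without Iberian male 5 edgeR called LSS alone, where it called 0.313% of all genes (23 of 7358). Of the 6 fitted breed differences 4 were above 0 and 2 below, where 49.1% of all genes were above 0, and their median was 0.08, against -0.004 over all genes. Because the members were chosen with earlier results of these data known, the shares over all genes do not test the set, here or within the sexes.

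Within males edgeR called none of the 6, where it called 0.0282% of all genes. LSS and SREBF2 had an unadjusted p under 0.05 in males, where 10.7% of all genes had one. It also called none of the 6 when Iberian male 5 was left out, neither in males (0.0951% of all genes called) nor in females (0.109%). Within females it called none of the 6, where it called 0% of all genes, and LSS alone had an unadjusted p under 0.05, where 5.53% of all genes had one. LSS was the only one of the 7 whose female groups did not overlap, where those of 1.21% of all tested genes did not. In females breed coincided with the low-quality alignment split. None of the 7 was free of overlap between the male groups, where 1.88% of tested genes were. For sex edgeR called none of the 6 (0.0705% of all genes called), and none had an unadjusted p under 0.05, where 3.6% of all genes had one. For breed in males minus breed in females it called none of the 6 (0.0141% called), and none had an unadjusted p under 0.05, where 8.36% of all genes had one. Limma voom called none of them in these 4 comparisons either. DESeq2 also called none of them there, but gave no adjusted p for LSS, SQLE and INSIG1 in males. Without Iberian male 5, the sex difference of SREBF2 was 0.21 (SE 0.09, unadjusted p = 0.0263, edgeR adjusted p = 0.999).

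The wider pathway was read from 3 lists. Of 20 enzymes of cholesterol synthesis, 11 could be tested. Between breeds 5 were above 0 and 6 below, with a median of -0.03 and none called, while LSS and 1 other enzyme lay past 0.4 in either direction. With Iberian male 5 left out, 6 enzymes were above 0 and 5 below, with a median of 0.03 and LSS called. The other enzyme past 0.4 was CYP51A1, which removes a methyl group from the lanosterol that LSS makes. CYP51A1 averaged 4.45 ± 1.40 CPM in crossbred and 6.17 ± 2.38 CPM in Iberian animals (SD, n = 10 each), a difference of -0.44 (SE 0.23, edgeR adjusted p = 0.669). In males CYP51A1 had 2.46, 5.63, 4.30, 6.67 and 2.82 CPM in crossbred animals, against 9.53, 9.10, 7.97, 6.85 and 5.42 CPM in Iberian animals. The male groups overlapped only through crossbred males 2 and 4 and Iberian male 5, and the difference was -0.82 (SE 0.31, edgeR adjusted p = 0.311). Without that animal the CYP51A1 difference in males was -0.89 (SE 0.31, edgeR adjusted p = 0.255). In females CYP51A1 had 2.89 to 5.65 CPM in crossbred and 2.84 to 7.26 CPM in Iberian animals, with a difference of -0.06 (SE 0.34, edgeR adjusted p = 0.998). Breed in males minus breed in females gave -0.75 (SE 0.46, edgeR adjusted p = 0.657).

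Of 15 genes that regulate SREBP, 8 could be tested, 5 above 0 and 3 below between breeds, with a median of 0.07 and none called, and without Iberian male 5 again 5 above and 3 below, with a median of 0.08 and none called. MBTPS1, the first protease that cuts SREBP, had 0.25 (SE 0.14, edgeR adjusted p = 0.711), and 0.29 without Iberian male 5 (edgeR adjusted p = 0.573). RNF139, a ubiquitin ligase of the endoplasmic reticulum that acts on the SREBP pathway, had -0.13 (SE 0.11, edgeR adjusted p = 0.804) over both sexes. RNF139 had 67.8, 76.8, 90.0, 67.6 and 73.9 CPM in crossbred males, against 128, 106, 119, 74.1 and 103 CPM in Iberian males. Only Iberian male 4 lay within the crossbred male range. The difference was -0.49 in males (SE 0.15, edgeR adjusted p = 0.225) and 0.22 in females (SE 0.15), and the difference between these was -0.72 (SE 0.21, edgeR adjusted p = 0.423). Leaving out Iberian male 5 gave -0.50 in males (SE 0.15, edgeR adjusted p = 0.196) and again -0.72 for the difference between the sexes (edgeR adjusted p = 0.247). RNF139 overlaps other annotated genes, and the sources used here do not say how reads shared with them were treated.

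Of 18 genes of cholesterol uptake, transport and turnover, 7 could be tested, 6 above 0 and 1 below, with a median of 0.09 and none called. In the fit without Iberian male 5, 8 could be tested, 6 above 0 and 2 below, with a median of 0.06 and none called. NPC1, which exports cholesterol from lysosomes, averaged 11.09 ± 2.10 CPM in crossbred and 8.21 ± 3.32 CPM in Iberian animals (SD, n = 10 each). That difference was 0.44 (SE 0.20, unadjusted p = 0.0327, edgeR adjusted p = 0.598), and 0.54 without Iberian male 5 (SE 0.19, edgeR adjusted p = 0.330). NR1H3, the sterol sensor LXR alpha, had 0.09 (SE 0.08) and STARD4, a carrier of cholesterol in the cytosol, had -0.20 (SE 0.22). NPC1, NR1H3 and STARD4 each overlap another annotated gene. APOE, the main apolipoprotein of astrocytes, was chosen after its values were seen. APOE had 0.26 in males (SE 0.12, edgeR adjusted p = 0.400) and -0.20 in females (SE 0.12), with a difference between them of 0.47 (SE 0.16, edgeR adjusted p = 0.550). For APOE without Iberian male 5 these were 0.31 in males (SE 0.11, edgeR adjusted p = 0.275) and 0.52 for the difference between the sexes (SE 0.16, edgeR adjusted p = 0.270).

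**Figure D4:**
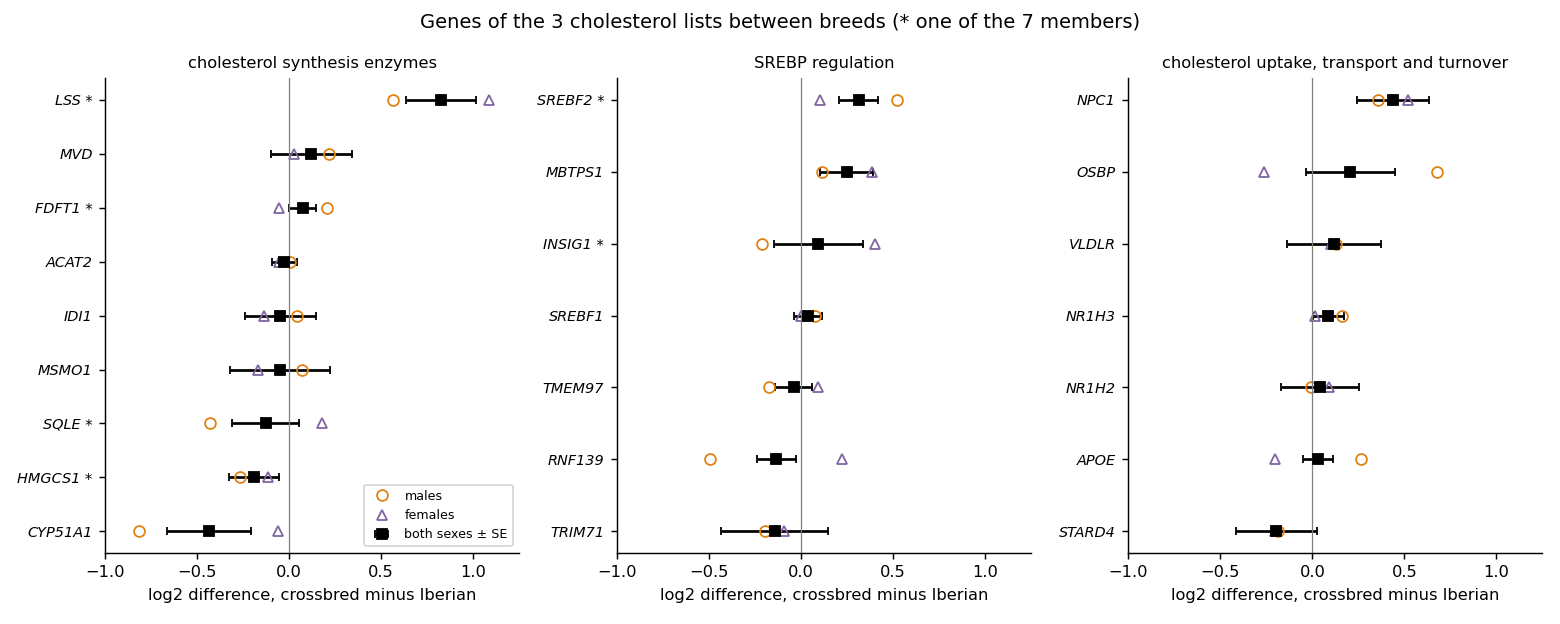
Breed differences (log2, crossbred minus Iberian, x axis) of 23 tested genes of the 3 lists (y axis), over both sexes (squares, bars are SE), in males (circles) and in females (triangles). LSS at 0.82 is the highest of the enzymes and CYP51A1 at -0.44 the lowest, and all other enzymes shown lie between -0.19 and 0.12.

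The tested genes did not vary together from animal to animal as one block. Over 15 pairs of the 6 genes, with group means removed (n = 20 animals), Pearson's r ran from -0.52 to 0.65 and none passed adjustment over the 15 pairs. SREBF2 and FDFT1 had the highest value (r = 0.65, permutation p = 0.00770, adjusted 0.115, and Spearman's rho = 0.51, permutation p = 0.0327, adjusted 0.287). Leaving out the 2 animals farthest from the SREBF2 median gave r = 0.64, and leaving out Iberian male 5, the lowest for both genes, gave 0.45. HMGCS1 and FDFT1 had the lowest value (r = -0.52, permutation p = 0.0336, adjusted 0.252, and Spearman's rho = -0.51, permutation p = 0.0382, adjusted 0.287). LSS and SREBF2 had r = -0.13 (permutation p = 0.633, adjusted 0.701, and Spearman's rho = -0.06, permutation p = 0.817, adjusted 0.817). That value was 0.17 without Iberian male 5. LSS and HMGCS1 had r = -0.43 over all 20 animals (permutation p = 0.109, adjusted 0.467, and Spearman's rho = -0.47, permutation p = 0.0679, adjusted 0.340). That pair without Iberian male 5 had the lowest value of the 15 (r = -0.63, permutation p = 0.0153, adjusted 0.230, and Spearman's rho = -0.66, permutation p = 0.00943, adjusted 0.141), and -0.68 also without the 2 animals farthest from the LSS median. Each point shares its library and scaling between both genes, and the pairs with LSS or INSIG1 rest on few counts.

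**Figure D5:**
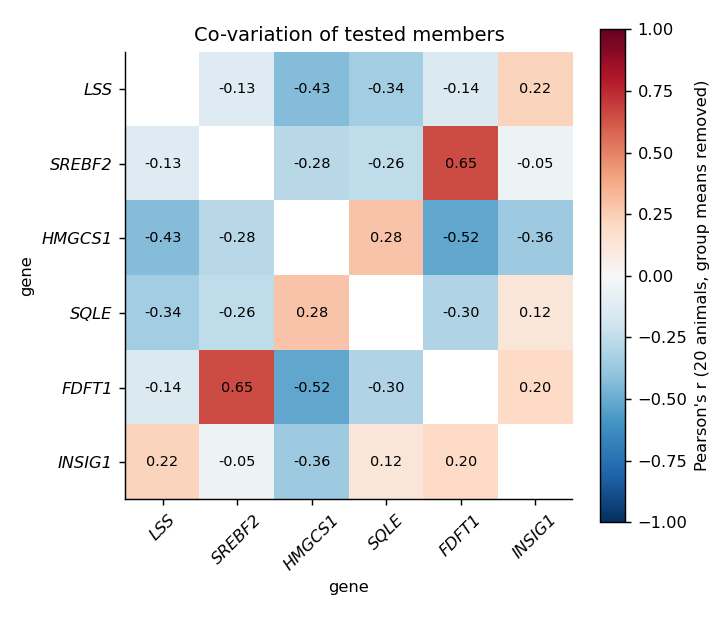
Pearson's r between each pair of the 6 tested genes (both axes) over 20 animals after removing group means, with colour from -1 to 1. SREBF2 with FDFT1 is the highest at 0.65 and HMGCS1 with FDFT1 the lowest at -0.52.

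Over the 20 libraries without removing group means, the tested genes whose log2 CPM followed LSS most closely were CAPNS1 (r = 0.73), TMEM9B (r = 0.72) and CFAP119 (r = 0.71). Among those that followed SREBF2 most closely were EVL (r = 0.80) and EIF4E3 (r = 0.78). None of these 5 is on the cholesterol lists, and LSS and SREBF2 themselves had r = 0.30. Without Iberian male 5 the 3 nearest to LSS were TMEM120B (r = 0.79), LRRC45 (r = 0.77) and CAPNS1 (r = 0.76). Without it the 3 nearest to SREBF2 were KIRREL3 (r = 0.80), EIF4E3 (r = 0.75) and EHD3 (r = 0.73). So 1 of 3 nearest genes was shared between both sets of libraries for either gene. These values carry the group differences and shared scaling, and are a description of these libraries.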

How the data were processed

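Hypothalamic messenger RNA was read in pairs, 76 bases at each end, per the labels' protocols. The authors deposited whole-number read counts per gene, 1 column for each animal and not normalized. The submitters' processing notes name HISAT2, HTSeq, DESeq2, FastQC and Trim Galore and the build Sscrofa11.1, and the sources used here give no versions and no strand setting. The 5 summary lines took no part in library sizes or tests. Among them, entries in no feature took 80.2 to 88.1% of all entries and gene counts 4.04 to 4.62%. Symbols matched 14857 of 25880 identifiers (57.4%). Coordinates and neighbours came from the RefSeq table of Sscrofa11.1, which gives no strand, and no sequences were used.

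Counts were scaled by TMM, filtered by edgeR's filterByExpr (minimum 10 counts in about as many libraries as a group holds and 15 over all), and tested with edgeR 4.0.16 in R 4.3.3 by its quasi-likelihood test with robust dispersions and 1 mean for each of the 4 groups. All 20 libraries entered each fit, and p-values were adjusted by Benjamini-Hochberg over all 7090 genes at a threshold of 0.05. Differences are crossbred minus Iberian or male minus female. DESeq2 1.42.0 and limma 3.58.1 were alternatives. Pair correlations used 100000 permutations within groups. The fits were tested on simulated data. Replicates of 1 group differed by more than sampling noise in every pair (chi-square per degree of freedom 2.45 to 73.8).

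The members and lists were chosen with earlier results of these data known. Named beside the members were, for each list, any called gene and the 3 tested genes with the smallest breed p, and for LSS and SREBF2 the 3 genes of highest Pearson's r. Some genes that this rule names are not reported here.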

Additional observations from a re-analysis of the deposited data

Results flagged for a closer look

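One of 24 sets of 5 animals (6 tested genes in 4 groups) had an animal far from its group. FDFT1 in Iberian female replicate 1 was 943 CPM, while the other 4 Iberian females lay between 1083 and 1111 CPM. The gap to the nearest animal took 0.83 of the whole range, above the critical value of 0.71. Chance alone flags about 1 in 20 such groups. No FDFT1 difference passed, with or without that animal.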

How the results depend on the processing

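Across 873 fitted log2 differences of the 6 tested genes under alternatives, 863 kept their direction and side of the threshold, 8 turned direction, 2 newly passed and 0 were lost. Another 3, LSS, SQLE and INSIG1 in males with DESeq2, had no adjusted p. Both new passes were LSS between breeds, so that the count of called genes, 0 as reported, was 1 with limma voom with quality weights (0.85, adjusted p = 0.0326) and ranged from 0 to 1 when single libraries were left out (adjusted p of LSS 0.0243 to 0.157). LSS between breeds had an adjusted p of 0.0560 with DESeq2's size factors in edgeR, 0.0636 with DESeq2, 0.0580 without a filter on low counts, 0.0756 with at least 1 CPM in 5 libraries and 0.0567 without robust estimation. With the low-quality alignment split as a term it had 0.521, and 0.832 without Iberian male 5 as well. Over all genes, the 16 calls between breeds were 27 with DESeq2, 24 with limma voom, 78 without a filter, 0 with the alignment term, 1 with that term and without Iberian male 5, and 2 to 23 with single libraries left out. The 2 calls in males were 17, 10, 48, 0 and 4 under the same settings in that order, and 0 to 7 with single libraries left out. The 0 calls in females were 0, 1, 17, 0 and 0, and 0 to 8.

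All values that turned belonged to differences that had not passed. INSIG1 between breeds ranged from -0.036 to 0.29 with single libraries left out, below 0 without crossbred female 4. With the alignment term, breed in females was -0.46 for SQLE and 0.20 for FDFT1. With the term and without Iberian male 5, it was -0.040 for SREBF2, -0.51 for SQLE and 0.047 for FDFT1. Within groups the alignment split varied only among Iberian males, so the term in these female values is carried over from males. Breed in males minus breed in females for HMGCS1 was 0.031 with limma voom and ranged from -0.26 to 0.073 with single libraries left out, above 0 without crossbred female 2. Without Iberian male 5, Pearson's r was 0.17 for LSS with SREBF2 and 0.25 for LSS with FDFT1. The cause of these turns was not tested. With the replicate number as a block, LSS between breeds was 0.83 (edgeR adjusted p = 0.0528) and 0 of the 6 genes passed. Correlations between same-numbered animals of their deviations from group means were -0.08 to 0.14. Differently numbered animals were not compared, so these values cannot tell whether same-numbered animals shared more than a number. DHCR7 had too few counts for a test.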
